A study of Arabidopsis thaliana with 18 samples.

Results

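The response of Arabidopsis thaliana root tips to dexamethasone (DEX) was measured over 12 arrays, out of 18 in the series, as the mean of the DEX effect without and with cycloheximide (CHX). All 12 arrays held total RNA from root tips of 4-day-old Col-0 seedlings that carried pRPS5A-TMO5-GR, after 1 h on medium. Each of 4 groups had 3 arrays: root MS had neither compound, root DEX and root CHX had 1 of them, and root DEX+CHX had both. The 6 arrays with DEX were set against the 6 without it, with CHX as an additive term. The other 6 arrays, used here only for comparison, held GFP-positive cells sorted from protoplasted C24 roots in which J0571>>pUAS-TMO5-GR drove the fusion, after 2 h on medium alone (J0571 control) or with DEX (J0571 DEX). No group lacked the TMO5-GR fusion, so a response to DEX itself and a response through TMO5-GR cannot be told apart. The labels give neither concentrations nor the number of transgenic lines behind the root arrays.

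TMO5, a transcription factor of the basic helix-loop-helix (bHLH) class, forms a dimer with LONESOME HIGHWAY (LHW) and promotes the oriented divisions that widen the vascular cylinder of the root. Fused to the hormone-binding part of the glucocorticoid receptor (GR), it is held in the cytoplasm until DEX lets it enter the nucleus. CHX blocks protein synthesis, so a transcript that still responds to DEX under CHX does not need newly made protein for that response. The RPS5A promoter is active in dividing cells, and J0571 is an enhancer trap line known to mark ground tissue.

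The features of the array (probe sets) have log2 signals made by RMA. Of 38408 probe sets, 32879 had distinct values and each of these was tested once; 16739 carry exactly 1 gene symbol, and the 20927 without one are called unnamed here. TMO5 and its reported target LOG4 are not among the named probe sets and were not analysed here. Array medians over all 38408 probe sets, copies included, were 4.76 to 4.85 in root MS and 4.82 to 4.87 in root DEX. With CHX they were 4.62 to 4.63 without DEX and 4.61 to 4.65 with it. Over the 32879 distinct probe sets the CHX arrays had, on average, the higher medians. Making these medians equal lowered the CHX effect of the gene TRM25 from 1.46 to 1.36 log2. Arrays of the same group correlated at 0.989 to 0.994 over the distinct probe sets (12 pairs). CHX accounted for 69.9% of the variation between the 12 arrays, the spread within groups for 24.7%, and DEX for 2.79%, which is less than the 3.08% that each of the 8 residual degrees of freedom carried. No principal component separated the arrays with DEX from those without. In such whole root tips a change in the number of cells of a type and a change in transcript per cell cannot be told apart. Few cell type markers are named: EXPA7, an expansin of root hair cells, ranged from 8.09 to 9.02 on the root arrays and from 6.26 to 6.62 on the J0571 arrays. JKD, a zinc finger factor of the ground tissue, ranged from 8.79 to 9.13 and from 9.74 to 10.09. RCA, the activase of Rubisco in green tissue, was at 6.80 to 7.58 on the root arrays, and its DEX main effect was 0.06. On the J0571 arrays RCA varied more, at 8.20, 6.66 and 6.47 in J0571 control and 7.87, 5.84 and 5.74 in J0571 DEX. Replicate 1 was the highest in both J0571 groups.

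With DEX, the largest difference, which also had the smallest p, was in AT4G38650, higher on the DEX arrays and just outside the threshold. It encodes a family 10 glycosyl hydrolase, a class that cleaves xylan in cell walls. Among named genes, the next by p were AT5G50010 (SACL2) and AT1G29950 (SACL3), bHLH factors of the SAC51 family, the F-box protein gene AT3G23880 and the kinase gene PID2. None of 32879 probe sets (0%) passed at an adjusted p under 0.05 (limma, Benjamini-Hochberg), and the smallest adjusted p was 0.0582. At an unadjusted p under 0.05 there were 1494 probe sets (4.54%), of which 689 (2.1%) were higher with DEX and 805 (2.45%) lower. The mean effect over both levels of CHX was measured more tightly than either contrast alone, with a median SE of 0.0963 against 0.136 log2. Neither contrast alone had a probe set past the threshold: the smallest adjusted p was 0.360 for root DEX against root MS (1870 at an unadjusted p under 0.05) and 0.724 for root DEX+CHX against root CHX (1045).

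Most differences were small. The median absolute change was 0.07 log2 and the changes ran from -1.18 to 1.36, while the 95% interval of a typical probe set reached 0.21 to either side (median). A change of at least 0.5 log2 was measured for 167 probe sets (0.508%) higher and 109 (0.332%) lower with DEX. Those with the smallest p leaned towards higher signal: of the 20 leading probe sets, 17 were higher and 3 lower with DEX, and all 20 had every DEX array beyond every array without DEX at both levels of CHX. Over the whole table such a separation occurred upwards in 102 probe sets (0.31%) and downwards in 74 (0.225%). An order by p on these same arrays favours such separation, so for the leading genes it is not further evidence of a response.

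**Figure D1:**
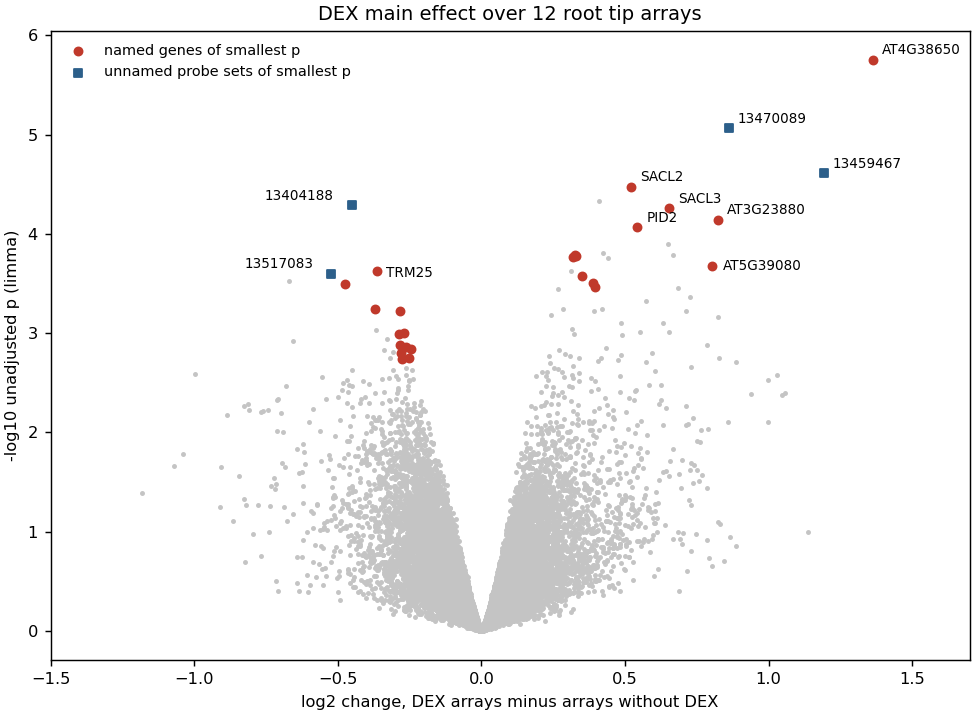
Each point is 1 of 32879 distinct probe sets, with the log2 change of arrays with DEX minus arrays without DEX on the x axis and -log10 of the unadjusted limma p on the y axis. Red circles are the 12 named genes of smallest p in each direction and blue squares the unnamed probe sets of smallest p; AT4G38650 stands alone at the upper right with a change of 1.36, and the lower side ends closer to 0.

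AT4G38650 measured 5.01, 4.78 and 4.53 log2 in the 3 root MS arrays and 6.72, 6.32 and 6.08 in root DEX. Under CHX it measured 4.83, 5.05 and 4.30 without DEX and 5.91, 5.87 and 5.79 with DEX. All 6 DEX arrays were above all 6 others, with a gap between 5.05 and 5.79. The DEX main effect was 1.36 log2 (SE 0.16, 95% interval 1.02 to 1.71), a 2.58-fold higher signal, with an adjusted p of 0.0582 (limma). It was 1.60 (SE 0.21) without CHX and 1.13 (SE 0.21) with CHX, and the difference between these, -0.47, had an interval from -1.12 to 0.18. Of 23 alternative settings 6 put this gene past the threshold, among them the one without root CHX replicate 2 (adjusted p 0.0248), and its change lay between 1.26 and 1.46 in all of them. It was the only probe set past the threshold in each of those 6.

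The SAC51 family encodes bHLH proteins known for the response of vascular cells to the polyamine thermospermine. SACL3 measured 6.54, 6.86 and 6.69 in root MS against 7.10, 7.36 and 7.60 in root DEX. With CHX the same gene measured 7.07, 7.53 and 7.33 without DEX and 7.93, 7.82 and 8.13 with DEX. At each level of CHX the DEX arrays lay above the others without overlap, although the root DEX and root CHX arrays occupied the same range. The main effect was 0.65 log2 (SE 0.11, interval 0.42 to 0.88, adjusted p 0.258), a 1.57-fold higher signal, and it was 0.65 both without and with CHX. The probe set of SACL3 is listed with its symbol 2 times under 2 Entrez identifiers, 1 of which is in the reference annotation, and was taken as 1 gene.

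SACL2 measured 8.09, 8.11 and 8.18 in root MS against 8.42, 8.71 and 8.86 in root DEX. With CHX its signals were 8.27, 8.60 and 8.55 without DEX and 8.94, 8.97 and 9.01 with DEX. The groups again did not overlap at either level of CHX. The main effect was 0.52 log2 (SE 0.08, interval 0.35 to 0.70, adjusted p 0.258), with 0.54 without and 0.50 with CHX. AT5G09460 (SACL1), the remaining named member, had a main effect of 0.30 (SE 0.10, unadjusted p 0.0118, adjusted p 0.999). Its signals were 8.00, 8.40 and 8.34 in root MS, 8.66, 8.74 and 8.55 in root DEX, 9.01, 8.83 and 9.16 in root CHX and 9.46, 9.15 and 9.01 in root DEX+CHX. The SACL1 groups were apart without CHX and overlapped with it. SAC51 itself is not among the named probe sets. CHX, which passed the test in 14702 probe sets (44.7%) of the same fit and was higher in 5666 (17.2%), raised all 3 genes: by 0.33 for SACL2, 0.61 for SACL3 and 0.66 for SACL1 (adjusted p 0.00545, 0.00054 and 0.000231).

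**Figure D2:**
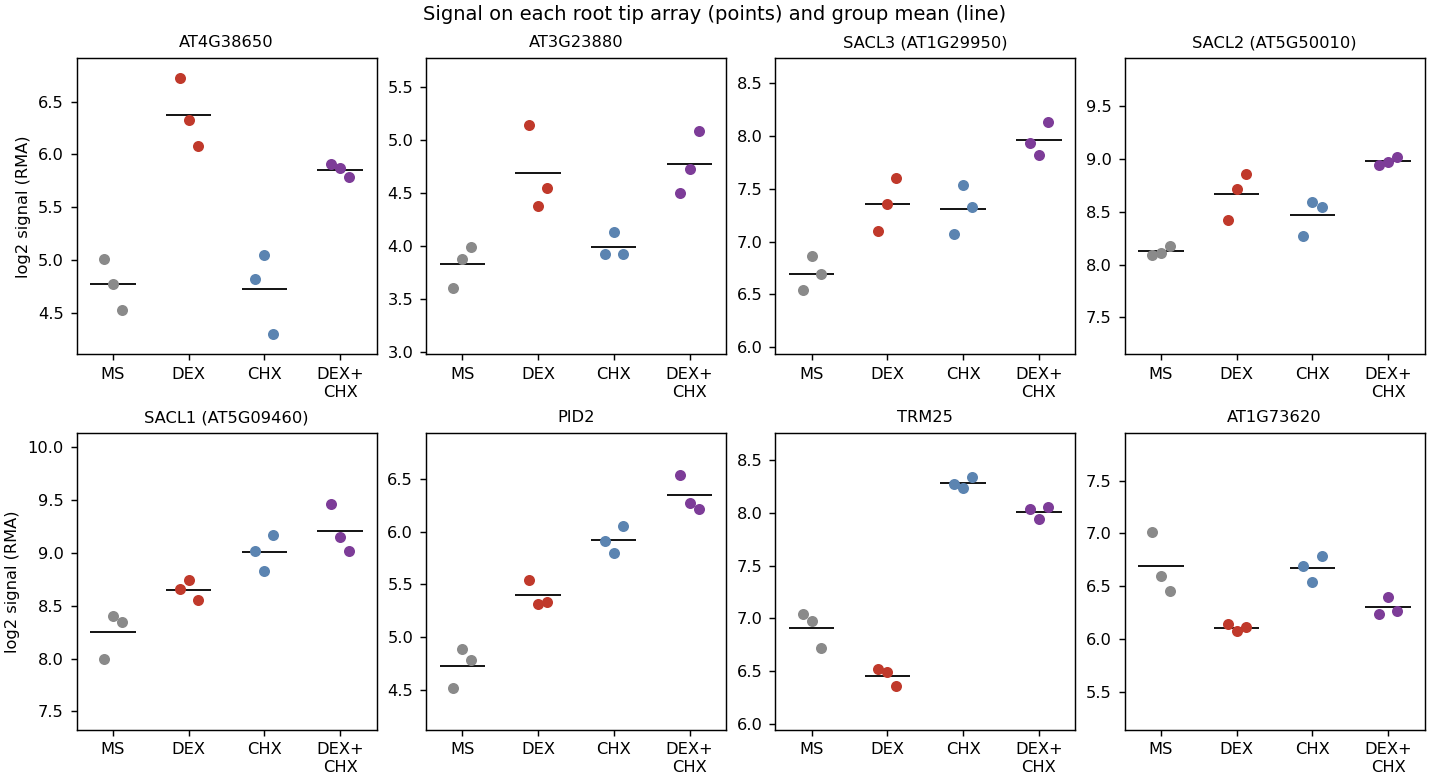
Log2 signals of 8 genes on the 12 root tip arrays are shown as points by group, with a line at the mean of the 3 arrays; every panel spans the same number of log2 units. AT4G38650 and AT3G23880 have similar levels in MS and CHX, the SACL genes and PID2 are higher in CHX than in MS, and TRM25 and AT1G73620 are lower on the DEX arrays at both levels of CHX.

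Among genes of protein turnover and signalling, AT3G23880, which encodes an F-box protein of a class that selects proteins for degradation, measured 3.60, 3.88 and 3.99 in root MS and 5.14, 4.37 and 4.55 in root DEX. In the CHX groups it measured 3.92, 4.13 and 3.92 without DEX and 4.50, 4.73 and 5.08 with DEX. All 6 DEX arrays were above the other 6. Its main effect was 0.82 log2 (SE 0.14, interval 0.52 to 1.12, adjusted p 0.296), and its CHX effect was 0.12 (adjusted p 0.506).

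PID2 (AT2G26700) encodes a protein kinase related to PINOID, a regulator of auxin transport. It measured 4.52, 4.89 and 4.79 in root MS and 5.54, 5.32 and 5.33 in root DEX. With CHX it measured 5.91, 5.80 and 6.05 without DEX and 6.54, 6.27 and 6.21 with DEX. The DEX arrays were higher at each level of CHX with no overlap, and CHX raised this gene by 1.07 log2 (adjusted p 1.98e-06). The DEX main effect was 0.54 (SE 0.09, adjusted p 0.315). AT2G33170, a receptor-like kinase gene with leucine-rich repeats, had a smaller main effect of 0.35 (SE 0.07, adjusted p 0.416), with signals of 7.56 to 7.93 in root MS and 8.11 to 8.24 in root DEX. Its CHX arrays lay higher, at 8.76 to 8.82 without and 9.05 to 9.08 with DEX.

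Of the other named genes with the smallest p, 3 encode enzymes or an ATPase. AT5G39080, an acyl-transferase gene of the HXXXD type, measured 4.09, 4.23 and 4.21 in root MS and 5.62, 5.13 and 4.64 in root DEX. With CHX it measured 5.83, 6.37 and 6.01 without DEX and 6.57, 6.86 and 6.74 with DEX. The spread within root DEX was the widest of the 4 groups, and the main effect was 0.80 (SE 0.15, interval 0.47 to 1.14, adjusted p 0.407). AT3G28580, an AAA-type ATPase gene, had a main effect of 0.39 (SE 0.08) on top of a CHX effect of 4.34 log2, which passed the test (adjusted p 2.96e-12). Without CHX its signals were low, at 2.47 to 2.69 in root MS and 2.81 to 2.94 in root DEX. Its DEX change was 0.30 without and 0.48 with CHX. AT1G17410, a nucleoside diphosphate kinase gene, had a main effect of 0.39 (SE 0.08), with signals of 4.94 to 5.02 in root MS and 5.36 to 5.59 in root DEX. The adjusted p of both was 0.433.

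The last 3 genes of this kind were AT1G31050, which encodes a bHLH factor, and AT3G04760 and AT1G12300, which encode pentatricopeptide repeat proteins, a class that binds organelle RNA. AT1G31050 measured 6.85, 7.09 and 7.02 in root MS and 7.23, 7.31 and 7.43 in root DEX, then 6.78, 6.88 and 6.93 in root CHX and 7.19, 7.12 and 7.22 in root DEX+CHX. The main effects of these genes were 0.33, 0.33 and 0.32 log2 (SE 0.06 each), all with an adjusted p of 0.358. Their changes are not much larger than the 0.21 that a typical interval reaches to either side, and the SE of these genes is below the median SE of 0.0963.

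Some unnamed probe sets ranked with these genes, and the files do not pair them with a gene. Probe set 13470089 measured 7.46, 7.47 and 7.19 in root MS, 8.26, 8.13 and 8.36 in root DEX, 5.14, 5.05 and 4.43 in root CHX and 5.58, 5.77 and 5.82 in root DEX+CHX. Its DEX main effect of 0.86 (SE 0.12, adjusted p 0.143) was the second smallest in p, and CHX lowered it by 2.51 log2, so the DEX and CHX effects ran in opposite directions. Probe set 13459467 measured 4.66, 4.85 and 3.92 in root MS, 6.01, 5.46 and 5.67 in root DEX, 6.09, 5.65 and 6.40 in root CHX and 7.44, 7.22 and 6.92 in root DEX+CHX. Its main effect of 1.19 (SE 0.18, adjusted p 0.258) came with a CHX effect of 1.53. On the lower side stood 13404188, with a main effect of -0.45 (SE 0.07, adjusted p 0.258), and 13517083, with -0.52 (SE 0.10, adjusted p 0.413).

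Named genes lower with DEX had smaller differences. TRM25 (AT5G62170) belongs to a family of proteins that recruit the protein TON1 and organise cortical microtubules. It measured 7.04, 6.98 and 6.72 in root MS and 6.52, 6.50 and 6.36 in root DEX, and with CHX 8.27, 8.23 and 8.34 without DEX and 8.03, 7.94 and 8.05 with DEX. The DEX arrays were lower at each level of CHX without overlap, by 0.36 log2 in the mean (SE 0.07, interval -0.52 to -0.21, adjusted p 0.413), while CHX raised this gene by 1.46. AT1G73620, a thaumatin-like protein gene, measured 7.02, 6.60 and 6.46 in root MS and 6.14, 6.08 and 6.11 in root DEX. With CHX it measured 6.69, 6.54 and 6.79 without DEX and 6.24, 6.40 and 6.27 with DEX. All 6 DEX arrays lay below the other 6, with a main effect of -0.47 (SE 0.09, adjusted p 0.433). AT2G12646, which encodes a zinc-binding factor of the PLATZ family, had -0.37 (SE 0.08, adjusted p 0.566), with signals between 5.87 and 6.11 in root MS and between 5.34 and 5.68 in root DEX. With CHX they lay between 6.11 and 6.30 without DEX and between 5.92 and 6.05 with it.

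The remaining 9 named genes on the lower side had main effects between -0.29 and -0.25 log2 and adjusted p from 0.566 to 0.868. They were AT1G71866, AT3G14160, AT3G28820, AT2G14289, AT3G57960, AT2G36630, AT5G33393, AT3G53080 and AT2G34230. Their signals were low: in 6 of them (AT1G71866, AT3G28820, AT3G57960, AT5G33393, AT3G53080 and AT2G34230) no root array reached 3 log2. Of all 12 named genes on the lower side only AT3G14160 overlapped between groups, at 4.93, 4.67 and 4.85 in root CHX against 4.51, 4.60 and 4.68 in root DEX+CHX. Low signals were frequent among the 100 probe sets of smallest p in each direction: 75 of the lower and 58 of the higher lay below the median signal of the table. On the higher side the 100 probe sets had changes of 0.19 to 1.36 with a median of 0.41, and on the lower side the changes were 0.20 to 1.00 in size with a median of 0.32.

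Whether the DEX response depended on CHX was tested as the interaction of both factors. No probe set (0% of 32879) passed, the smallest adjusted p was 1.00, and 1333 (4.05%) had an unadjusted p under 0.05. Of the 100 leading probe sets, 9 on the higher and 3 on the lower side had an unadjusted interaction p under 0.05. Both measures use the same arrays, and the order by main effect favours probe sets that moved alike at both levels of CHX. For single genes the precision was limited. The interval of the interaction ran from -0.49 to 0.49 for SACL3 and from -0.41 to 0.34 for SACL2. Differences within these intervals between the DEX responses without and with CHX are therefore not excluded. The 5 named genes of smallest interaction p in the positive direction were AT1G27270, CML43, AT3G61870, AT2G47340 and AT3G45050. In the negative direction they were AT1G19550, AT5G17440, AT5G38750, AT3G04855 and AT4G29070. CML43, a calmodulin-like protein gene, measured 5.22, 5.35 and 5.15 in root MS, 4.80, 5.02 and 4.85 in root DEX, 4.91, 4.94 and 4.75 in root CHX and 5.30, 5.25 and 5.23 in root DEX+CHX. Its DEX arrays lay below the others without CHX and above them with CHX, and the main effect was 0.02. Opposite separation of this kind occurred in 153 probe sets (0.465%), and an order by interaction p favours it.

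**Figure D3:**
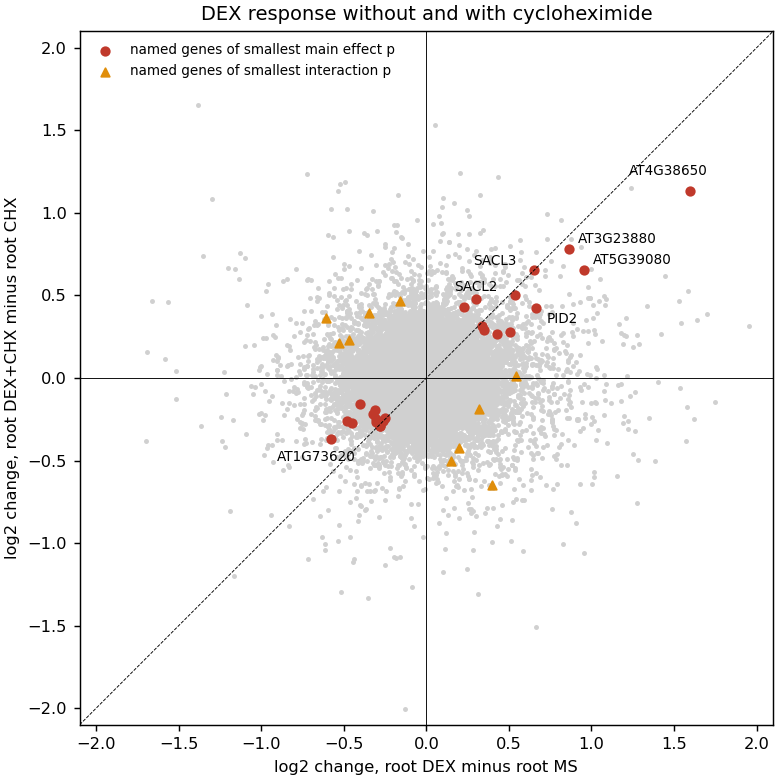
Each point is 1 distinct probe set, with the log2 change of root DEX minus root MS on the x axis and of root DEX+CHX minus root CHX on the y axis; the dashed line marks equal changes. Red circles are the 24 named genes of smallest main effect p, which lie in the quadrants of equal sign, AT4G38650 at 1.60 and 1.13, and orange triangles are the 10 named genes of smallest interaction p.

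The J0571 arrays share no sample with the root arrays and differ from them in strain, driver, tissue, duration and cell sorting, so they show the same genes in another setting. There, 12 probe sets (0.0365%) passed in J0571 DEX against J0571 control, 11 of them (0.0335%) higher with DEX. The count was 3 to 12 when single J0571 arrays were left out, and 0 with the replicate number as a block. AT4G38650 was among the 12, but with that block its adjusted p was 0.0904 (limma). It measured 5.26, 5.12 and 5.52 in J0571 control and 8.73, 8.43 and 8.52 in J0571 DEX. It rose by 3.26 log2 (SE 0.14, adjusted p 0.00187), and this change exceeded the root main effect by 1.90 (adjusted p 0.00295 for the difference, which passed upwards in 24 probe sets, 0.073%, and downwards in 7, 0.0213%).

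SACL3 measured 5.57, 6.07 and 6.40 in J0571 control and 7.07, 7.30 and 7.31 in J0571 DEX, a difference of 1.21 (SE 0.21, adjusted p 0.366). AT3G23880 measured 3.49, 3.85 and 3.63 and then 4.74, 4.79 and 4.49, a difference of 1.01 (SE 0.14, adjusted p 0.237). Both genes had every DEX array above every control array, as in the root tips. They did not pass in the J0571 fit, and they passed when the spread was shared over all 18 arrays (adjusted p 0.0102 for SACL3 and 0.0383 for AT3G23880). Upward separation of this kind held for 2063 probe sets (6.27%) in J0571. Probe set 13459467 measured 4.24, 4.54 and 4.41 in J0571 control and 6.77, 6.20 and 6.10 in J0571 DEX, a difference of 1.96 (SE 0.19, adjusted p 0.0587, or 0.00172 over all 18 arrays).

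Some other leading genes had differences near 0 or below it in J0571. AT3G28580 and AT2G33170 were higher there, by 0.41 (SE 0.21) and 0.21 (SE 0.11), and did not pass. SACL2 measured 6.76, 7.03 and 7.59 in J0571 control against 6.53, 7.11 and 7.36 in J0571 DEX, a difference of -0.13 (SE 0.28). PID2 measured 5.71, 5.88 and 5.75 against 5.68, 5.74 and 5.72, a difference of -0.07 (SE 0.10), and AT5G39080 differed by -0.07 (SE 0.31). The test of the difference between J0571 and root responses gave an adjusted p of 0.620 for SACL2, 0.211 for PID2 and 0.599 for AT5G39080, so that these genes were not shown to respond differently in the 2 settings. AT1G31050 measured 5.04, 5.05 and 5.03 in J0571 control and 4.41, 4.37 and 4.94 in J0571 DEX. It was thus lower with DEX on all 3 arrays there, a change of -0.47 (SE 0.17, adjusted p 0.713, limma). Downward separation of this kind held for 2001 probe sets (6.09%) in J0571. In the root tips AT1G31050 was higher with DEX, and its J0571 change minus its root main effect was -0.79 (adjusted p 0.0911).

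**Figure D4:**
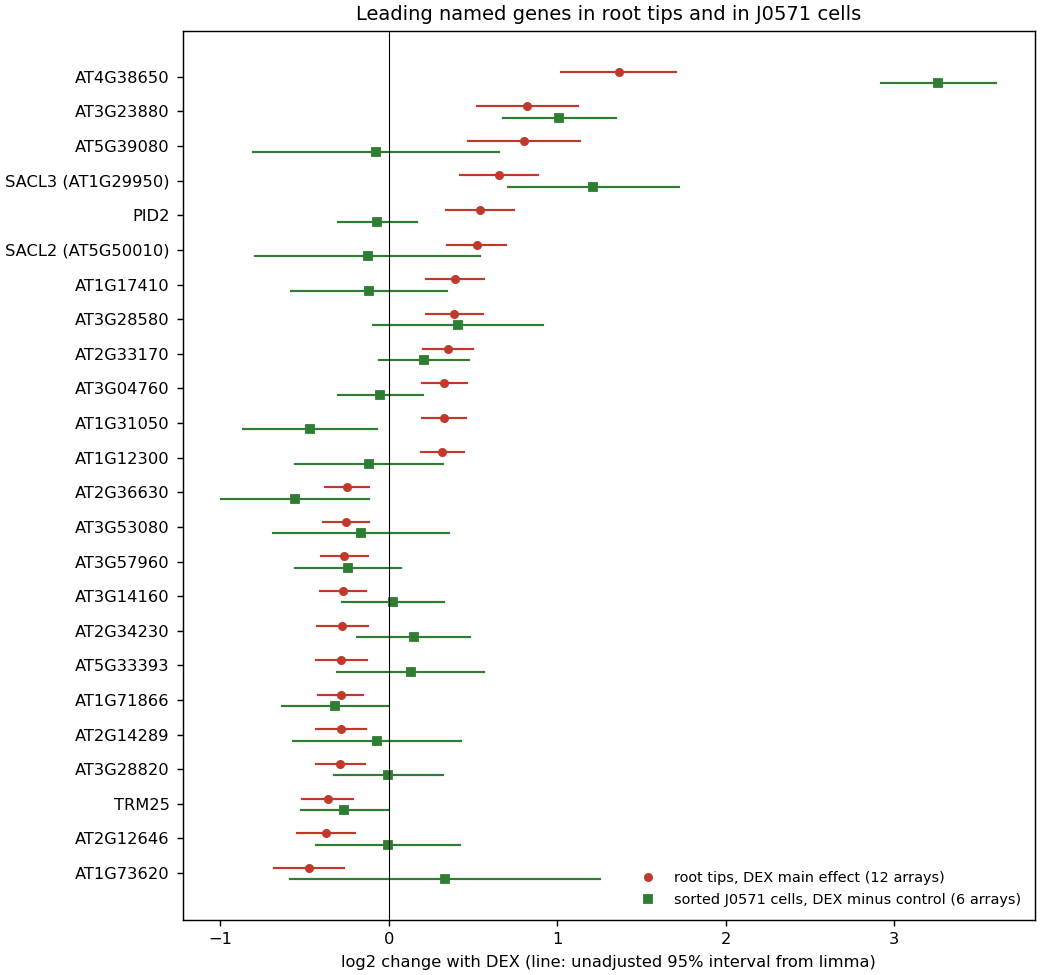
The log2 change with DEX is shown on the x axis for the 24 leading named genes, as a red circle for the main effect over 12 root tip arrays and a green square for the 6 J0571 arrays, with lines for unadjusted 95% intervals. AT4G38650 lies at 1.36 and 3.26, AT3G23880 and SACL3 are above 0 in both, and most genes of the lower side have J0571 intervals that include 0.

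Of the 100 probe sets leading on the higher side in the root tips, 55 were also above 0 in J0571, where 49.7% of all probe sets were. An unadjusted p under 0.05 in the same direction occurred for 16 of them, against 2.94% of all probe sets, and in the opposite direction for 3. On the lower side 50 of 100 had the same sign, 7 had an unadjusted p under 0.05 in the same direction, against 3.58% of all, and 2 in the opposite one. These counts are a description of 2 sets of arrays, and probe sets are not independent of each other.

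The gene lists around TMO5 were thinly covered, with 33 of 138 loci named in 13 of 17 lists. Among the reported TMO5-LHW targets 5 of 9 loci were named, all above 0, and 3 had an unadjusted p under 0.05, with a median of 0.14 log2. These were AT4G38650, SACL3 and iqd15, and the list comes from reports that include TMO5 inductions of this kind, so that it is not independent evidence of a direction. Over the 16412 named genes the median was -0.01, with 318 higher and 428 lower at an unadjusted p under 0.05. iqd15 (AT3G49380), which encodes a calmodulin-binding IQ-domain protein, measured 7.61, 7.60 and 7.48 in root MS, 7.67, 7.75 and 7.64 in root DEX, 8.09, 8.17 and 8.12 in root CHX and 8.24, 8.39 and 8.22 in root DEX+CHX. Its groups were apart at both levels of CHX by a small margin, with a main effect of 0.14 (SE 0.05, unadjusted p 0.022, adjusted p 0.999). AT2G28510 (DOF2.1), a zinc finger factor of the vascular cylinder, had 0.08 (SE 0.10), and BGLU44, a beta-glucosidase gene, had 0.11 (SE 0.18) with overlapping groups. The SAC51 family, with 3 of 4 loci named, had a median of 0.52, and all 3 had an unadjusted p under 0.05. SACL3 stands in both lists. SACL2 and SACL3 are also leading genes by p on these same arrays, and the lists were chosen with earlier results known. The SAC51 median is therefore not independent evidence either.

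The partner and relatives of TMO5 had small differences with DEX. LHW, with which TMO5 dimerises, measured 7.93, 8.27 and 8.15 in root MS, 8.08, 8.09 and 8.08 in root DEX, 8.02, 7.83 and 7.96 in root CHX and 7.88, 7.93 and 7.83 in root DEX+CHX. These values overlap, and the main effect was -0.05 (SE 0.06, interval -0.19 to 0.09). The TMO5 relatives AT3G56770 and AT2G41130 had -0.10 (SE 0.10) and 0.22 (SE 0.13). Of 8 loci in this family, 3 were named, none of them with an unadjusted p under 0.05.

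Hormone response lists had no member past the threshold. The early auxin list (GH3, IAA and LBD genes, which respond within the first hours to auxin) had 8 of 17 loci named and a median main effect of 0.03, with a median of -0.17 without and 0.23 with CHX. IAA29, a repressor of auxin response, had the largest main effect in it, 0.48 (SE 0.17, unadjusted p 0.0141, adjusted p 0.999). It measured 3.18, 3.01 and 2.94 in root MS, 2.70, 3.28 and 3.45 in root DEX, 4.36, 4.09 and 4.54 in root CHX and 5.32, 5.24 and 5.05 in root DEX+CHX. Without CHX its groups overlapped, and with CHX all DEX arrays were higher. The interaction was 0.78 (interval 0.20 to 1.35, limma unadjusted p 0.0128, adjusted p 0.9997) and did not pass. LBD16, a factor of lateral root initiation, measured 8.12, 8.13 and 8.04 in root MS and 7.70, 7.85 and 7.78 in root DEX, then 9.81, 10.13 and 9.90 in root CHX and 10.06, 10.13 and 10.32 in root DEX+CHX. It was lower on the DEX arrays without CHX and overlapped with CHX, so the main effect was -0.05. GH3.1, GH3.3 and LBD29 had CHX effects of 3.96, 4.25 and 3.45 log2 and DEX main effects of 0.19, -0.03 and -0.07. The type-A response regulators ARR15 and RR16, which report cytokinin signalling, had main effects of 0.15 (SE 0.20) and -0.03 (SE 0.27). No gene of cytokinin production, degradation or perception is among the named probe sets, and these lists were not analysed here.

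Lists for cell types had no member with an unadjusted p under 0.05. PHV, a class III homeodomain factor of the xylem pole, had a main effect of 0.01 (SE 0.08) and OPS, a regulator of phloem, 0.04 (SE 0.16). The 4 named ground tissue genes ran from -0.14 to 0.11 and EXPA7 had -0.16 (SE 0.13). STZ, a zinc finger gene of the early stress response, had -0.04 (SE 0.19), while CHX raised it by 3.24 log2. The 3 named genes of S-adenosylmethionine decarboxylase, an enzyme that feeds polyamine synthesis, had -0.01, 0.01 and 0.11, and AT5G02460 (PEAR2), a Dof factor, had 0.00.

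**Figure D5:**
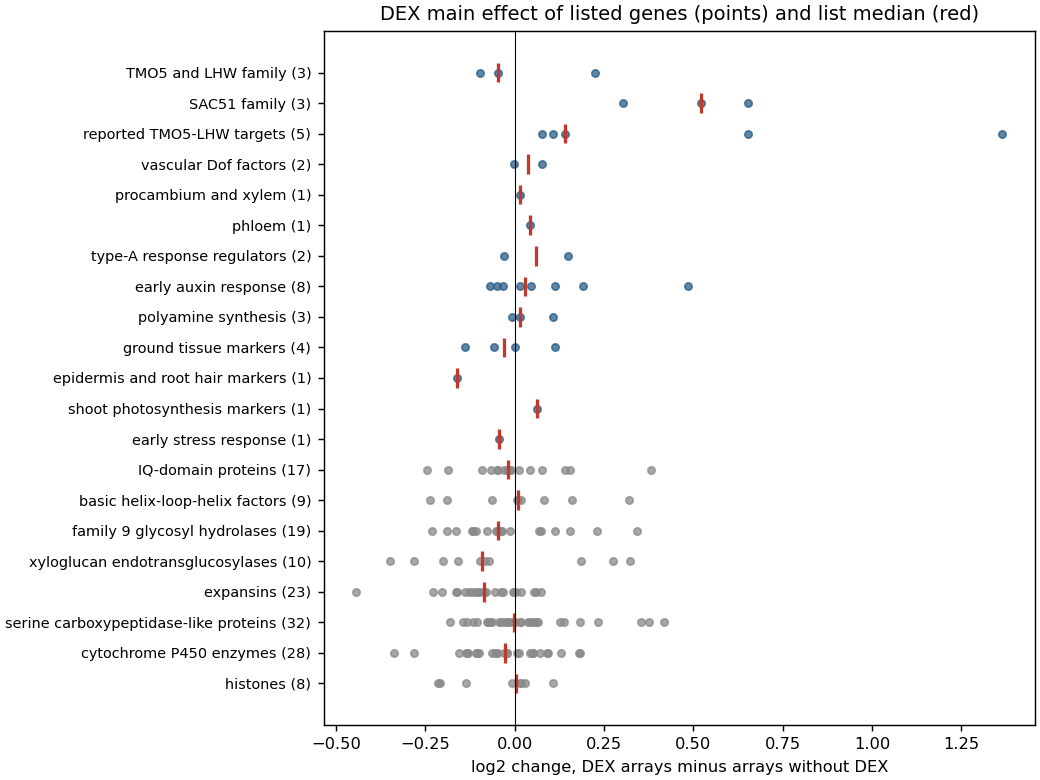
Points are the DEX main effects (log2, x axis) of the named genes in each list (blue) and in each family picked by symbol (grey), with the number of genes in brackets and a red bar at the median. The SAC51 family lies entirely to the right of 0, between 0.30 and 0.65, while most lists and families centre near 0.

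Families picked out by gene symbol had medians from -0.09 to 0.01 log2, and individual members named from them were chosen after their values were seen. Over all 16412 named genes 47.6% were above 0 and 4.55% had an unadjusted p under 0.05 in either direction. Of 17 IQ-domain genes 6 (35.3%) were above 0 and 3 (17.6%) had an unadjusted p under 0.05, with a median of -0.02. IQD18 (AT1G01110) had 0.38 (SE 0.10, unadjusted p 0.00283, adjusted p 0.905) and measured 7.17, 6.93 and 6.64 in root MS, 7.47, 7.45 and 7.58 in root DEX, 7.59, 7.46 and 7.49 in root CHX and 7.59, 7.77 and 7.71 in root DEX+CHX. The DEX arrays of IQD18 were clearly higher without CHX, whereas with CHX the highest array without and the lowest with DEX were less than 0.01 apart, both at 7.59 when rounded. In J0571 this gene measured 8.89, 8.73 and 8.55 without and 9.94, 9.82 and 9.84 with DEX, a difference of 1.15 (SE 0.12, adjusted p 0.0725). IQD26 had -0.25 (SE 0.08, unadjusted p 0.0126).

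Families of other wall enzymes and wall-loosening proteins had medians below 0. Of 23 expansins, which loosen cell walls, 5 (21.7%) were above 0, against 47.6% of all named genes, with a median of -0.09. None of them had an unadjusted p under 0.05, against 4.55% of all. The family 9 glycosyl hydrolases, which include cellulases, had a median of -0.05 over 19 genes, none with an unadjusted p under 0.05. The xyloglucan endotransglucosylases had a median of -0.09 over 10 genes, with 3 higher at an unadjusted p under 0.05, against 318 higher of the 16412 named genes: EXGT-A3 (0.19), XTH18 (0.32) and XTH29 (0.28). All 3 had overlapping groups at one level of CHX or both.

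SCPL45, the highest of 32 serine carboxypeptidase-like genes (median 0.00), measured 8.61, 8.67 and 8.47 in root MS, 9.15, 9.12 and 9.01 in root DEX, 8.77, 8.96 and 9.13 in root CHX and 9.40, 9.03 and 9.41 in root DEX+CHX. Its main effect was 0.42 (SE 0.09, adjusted p 0.566), and its groups overlapped under CHX. In J0571 it measured 9.10, 9.53 and 9.25 without and 9.99, 9.98 and 9.93 with DEX, a difference of 0.67 (SE 0.13, adjusted p 0.454, or 0.0436 over all 18 arrays). HTR12, the histone H3 variant of centromeres, had -0.21 (SE 0.06, unadjusted p 0.0053, adjusted p 0.988) and ran from 7.16 to 7.27 without DEX and from 6.82 to 7.15 with it, and in J0571 its DEX arrays were higher, by 0.19 (SE 0.09). The 9 bHLH genes and 28 cytochrome P450 genes picked by symbol had no member with an unadjusted p under 0.05, with medians of 0.01 and -0.03. The bHLH genes SACL1, SACL2, SACL3 and AT1G31050, described above, were not among these 9.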

How the data were processed

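The deposited values are log2 signals that the authors made with RMA, per the submitters' processing notes. RMA corrects background, normalizes by quantiles and summarises probes; no source used here gives its version or says if the root and J0571 arrays went through it as 1 set. Genes were named from GEO's platform annotation, updated by Entrez identifier through TAIR10.1, which linked 16575 of 16739 probe sets with 1 symbol to a locus. Of the probe sets, 742 carry several symbols, and none was named from these; 7132 shared all values with others, up to 29 alike, and were counted once.

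Values were used as given in limma 3.58.1 (R 4.3.3, data.table in release 1.17.8): DEX and CHX as additive factors over 12 arrays, moderated variances, 2-sided tests and Benjamini-Hochberg adjustment over 32879 probe sets, with a threshold of 0.05. The interaction and the single contrasts came from 1 mean per group; J0571 was fitted separately, and its difference from the root effect over 18 arrays. Alternatives covered the model, copies, normalization, low signals, variance model, array weights, probe sets tested, all 18 arrays, no CHX term and leaving out each array. The procedure was tested on simulated data.

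Named genes are the 12 of smallest p in each direction, AT4G38650, the 5 of smallest interaction p each way, list members and 2 unnamed probe sets each way. Members, lists and families were chosen with earlier results of these data known, and family patterns were corrected after the matched names were seen. Replicates are labelled repeats; no label says that they were separate cultures, so p-values measure the spread between these samples. The number of arrays limits the precision. Same-numbered root arrays did not in general deviate together (r of -0.30 to 0.27 over 18 pairs, 3 above 0.1). The 3 J0571 pairs had r of 0.05 to 0.30, 2 above 0.1, so deviation shared by number may remain there. The reported fits did not pair arrays by number, and the J0571 SEs include any such deviation. Figures were drawn with matplotlib 3.10.9 and pandas 2.3.3 in Python 3.11.15.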

Additional observations from a re-analysis of the deposited data

Results flagged for a closer look

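For 8 of the named genes with the smallest interaction p, every DEX array lay on one side of the controls without CHX and on the other side with CHX. These genes were chosen by interaction p on the same arrays, which favours this pattern, and it occurred in 153 of 32879 probe sets (0.465%). None passed the interaction test, whose smallest adjusted p was 1.00 (limma). The interaction, the DEX response with CHX minus that without, was 0.97 log2 for AT1G27270 (-0.61 without and 0.36 with CHX), 0.74 for CML43, 0.70 for AT2G47340 and 0.63 for AT3G45050. In the other direction it was -0.65 for AT1G19550, -0.51 for AT5G17440, -0.62 for AT5G38750 and -1.05 for AT3G04855 (0.40 without and -0.65 with CHX). Several of these signals are low: the highest root array was at 2.82 log2 for AT1G27270, 3.11 for AT2G47340 and 3.40 for AT3G45050, and that of AT1G19550 lay between the values of AT2G47340 and AT3G45050.

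The response in sorted J0571 cells differed from the root main effect for AT4G38650, by 1.90 log2 with an adjusted p of 0.00295. AT1G31050 was higher with DEX at both levels of CHX in the root tips, as were 102 probe sets (0.31%) by such separation. It was lower on every J0571 DEX array, and such downward separation held there for 2001 probe sets (6.09%). The J0571 change of AT1G31050 minus its root main effect was -0.79 with an adjusted p of 0.0911 (limma), which did not pass. Probe set 13517083 was lower with DEX in the root tips (-0.52), while its J0571 change was 0.11 (SE 0.10, interval -0.11 to 0.34). The difference was 0.64 with an adjusted p of 0.200 (limma), which did not pass. The J0571 arrays differ in strain, driver, sorting and duration, and these cannot be told apart.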

How the results depend on the processing

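No probe set passed the DEX main effect as reported, and 1, AT4G38650, passed in 6 of 23 alternatives. The count was 1 with the replicate number as a block (replicate block, adjusted p 0.0248), with array medians made equal (0.044), with the trend and robust options (0.029), when only probe sets of 1 named gene were tested (0.0114) and over all 18 arrays (0.00179). Leaving out single arrays gave counts of 0 to 1, the 1 without root CHX replicate 2 (0.0248), and smallest adjusted p from 0.0248 to 0.290. With fewer probe sets tested the adjustment is milder by construction; for the other settings the cause was not tested. The 28 named probe sets kept their direction in 634 of 634 values. The interaction count was 0 in every alternative run. The J0571 count of 12 was 0 with the replicate block (adjusted p 0.0904 for AT4G38650), 86 over all 18 arrays (then also with SACL3, AT3G23880, SCPL45 and 13459467) and 3 to 12 when single arrays were left out; without J0571 control replicate 1 or 2 or J0571 DEX replicate 1, 2 or 3 it was 6, 3, 5, 3 and 3. The difference between J0571 and root responses of AT1G31050 passed only without J0571 DEX replicate 3 (-0.98, adjusted p 0.00228).

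List members near 0 changed sign in 56 of 687 values. With quantile normalization JKD had -0.00583; with array weights JKD had -0.0125, AT5G02460 0.00833 and GH3.3 0.00416. When single arrays were left out, the ranges were -0.148 to 0.0589 for AT1G09750, -0.045 to 0.0623 for AT5G02460, -0.0783 to 0.0973 for AT5G15950, -0.0142 to 0.223 for BGLU44, -0.201 to 0.156 for GH3.3, -0.0316 to 0.12 for IAA20, -0.0469 to 0.115 for IAA30 and -0.0239 to 0.0502 for JKD. They were -0.127 to 0.0128 for LBD29, -0.0404 to 0.155 for OPS, -0.039 to 0.0599 for PHV, -0.0154 to 0.159 for RCA, -0.186 to 0.156 for RR16, -0.0407 to 0.0257 for SAMDC and -0.164 to 0.101 for STZ. Low signals lie close to background and limit what their differences can show.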
